A study of Mus musculus with 6 samples.

Results

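Epithelial junction genes were followed here in sorted luminal progenitor (LP) cells of the mouse mammary gland, with and without *Robo1*. They are the 39 genes, among 18537 gene clusters with a deposited value, whose symbol is a claudin (*Cldn* with a number, 18 genes) or one of 26 symbols listed by name, 5 of which are claudins themselves. By the structure they build, 25 belong to tight junctions, 4 to adherens junctions, 8 to desmosomes and 2 to gap junctions. Tight junctions seal the space between neighbouring epithelial cells: claudins form the barrier and its ion pores, and scaffold proteins tie them to the actin cytoskeleton. Adherens junctions and desmosomes hold cells together through cadherins, which are linked inside the cell to actin and to keratin filaments, respectively. Gap junctions are channels made of connexins that pass small molecules from cell to cell. In the mammary gland all of these lie between luminal cells, and claudin-based tight junctions close when milk secretion starts.

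The study asked what loss of *Robo1*, which encodes a receptor for SLIT guidance cues, does to LPs before any pregnancy. Adult nulliparous *Robo1+/+* and *Robo1-/-* littermates came from crosses of heterozygotes. The *Robo1-/-* animals carry the targeted *Robo1tm1Matl* allele in every tissue, not only in the LPs. Cells were sorted as Lin-CD24loCD29+CD61+, where Lin- means depleted of blood and endothelial cells, and poly(A)+ RNA of 2 animals was pooled for each library. There were 3 libraries per genotype, named gh03, gh09 and gh15 for *Robo1+/+* and gh06, gh12 and gh18 for *Robo1-/-*, with between 9727191 (gh18) and 17433868 (gh09) reads in genes. The strain background is not given in the sources used here. All values below are normalized read counts, that is, reads divided by 1 scaling factor per library, unless they are said to be per kilobase of exon. P-values measure only the spread between these libraries of 2 animals each, and in bulk RNA fewer cells of a type and less RNA per cell cannot be told apart.

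The targeted gene gave the first check of the labels. *Robo1* was at 289, 574 and 541 in the *Robo1+/+* libraries and at 130.05, 214 and 177 in the *Robo1-/-* libraries, a log2 fold change of -1.39 ± 0.36 (SE, limma, adjusted p = 0.858). The genotypes did not overlap, and reads of *Robo1* were still counted in each *Robo1-/-* library. Markers of luminal cells were high. The summed level of 5 luminal keratin and surface markers was 108342 to 123447 in *Robo1+/+* and 58358 to 139644 in *Robo1-/-*, with the lowest value in gh18. Against this, 10 basal markers summed to between 907 and 2548 and 8 leukocyte markers to between 74.4 and 143 over the 6 libraries, and the pan-leukocyte gene *Ptprc* was at 0 in 4 of them. In *Robo1+/+*, 9 LP markers summed to 34833 to 58318 and 9 markers of mature luminal cells to 46691 to 59297. These sums thus do not single out progenitors among luminal cells.

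Some claudin sequences are shown because *Cldn4* had the highest level of the junction genes and *Cldn3* the widest range between libraries, 62.7-fold, while *Cldn1* and *Cldn12* lay at the opposite end in library gh18. Claudins are known for a signature in their first extracellular loop: a tryptophan, then glycine-leucine-tryptophan, then a pair of cysteines. The search found these letters in the annotated coding sequence of every claudin listed here except *Cldn10* and *Cldn15*. The coding stretch from the first tryptophan to the last cysteine is given for 4 of them, 5′ to 3′ on the coding strand, with the codons of the signature in capitals. The sequences were read from the GENCODE coding transcripts and placed on NCBI37 (mm9) by their annotated exons, and each stretch lies within 1 coding exon.
Cldn3: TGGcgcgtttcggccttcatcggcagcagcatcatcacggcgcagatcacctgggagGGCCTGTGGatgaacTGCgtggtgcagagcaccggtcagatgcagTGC
Cldn4: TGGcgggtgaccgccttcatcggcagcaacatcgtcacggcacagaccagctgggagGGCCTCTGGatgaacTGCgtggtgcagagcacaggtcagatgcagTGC
Cldn1: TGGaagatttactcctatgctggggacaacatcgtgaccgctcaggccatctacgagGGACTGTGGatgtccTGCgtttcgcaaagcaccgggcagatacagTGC
Cldn12: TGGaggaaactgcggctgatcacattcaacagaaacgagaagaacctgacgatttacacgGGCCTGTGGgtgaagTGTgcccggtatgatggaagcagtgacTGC
The *Cldn3* stretch lies at chr5:135462399-135462503 on the plus strand and that of *Cldn4* at chr5:135422424-135422528 on the minus strand, so these claudins are close neighbours. *Cldn1* is read from chr16:26371521-26371625 and *Cldn12* from chr5:5508225-5508329, both on the minus strand. Each stretch is 105 bases long. Its GC content, the share of G and C bases, was 62.9% in *Cldn3* and also in *Cldn4*, 55.2% in *Cldn1* and 52.4% in *Cldn12*. Over the whole transcript the gap was wider, at 62.7%, 56.9%, 42.3% and 44.4%, respectively.

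One library stood apart from the other 5, and its deviations followed GC content. The filter on low reads kept 13692 genes for testing, and 32 of the 39 junction genes were among them. In *Robo1-/-* gh18, 11 of these 32 lay below all 5 other libraries and 11 lay above them, and across all tested genes 38.3% lay below and 36.2% above. The junction genes thus moved in gh18 about as often as genes in general. The genes low in gh18 were rich in G and C. The Spearman correlation between a gene's deviation in gh18 from the other 5 libraries and its transcript GC content was -0.74 over the 32 junction genes and -0.81 over 12532 genes with a known GC content. Genes share their library, so these are descriptions, and in the other libraries the correlation over junction genes was between 0.05 and 0.66. For those libraries the mean of the other 5 includes gh18, so these values also carry its trend and are no separate comparison.

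**Figure D1:**
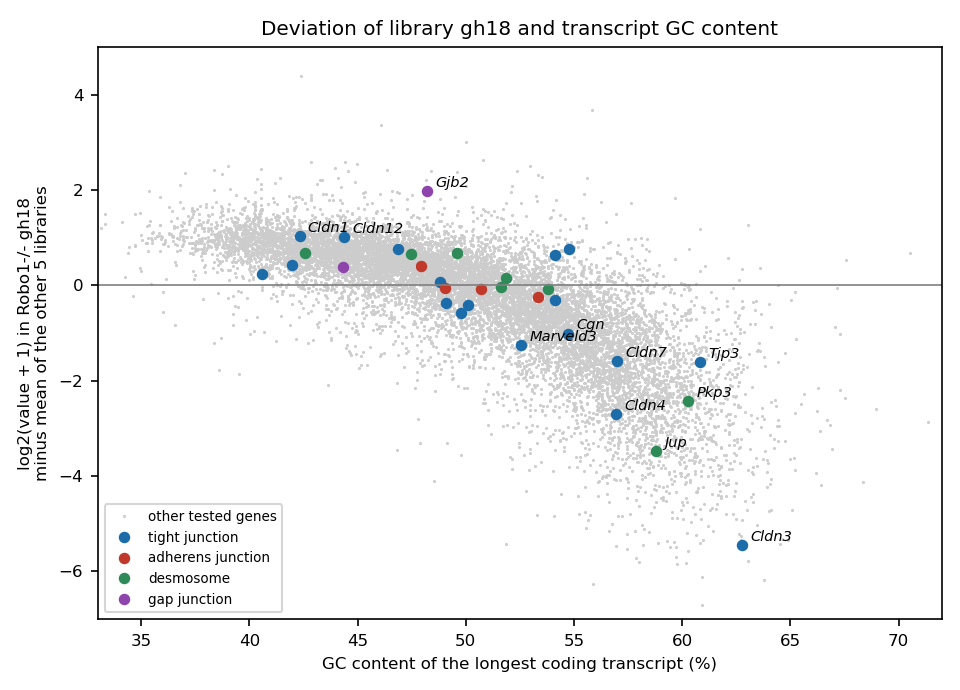
Deviation of library *Robo1-/-* gh18 (log2(value + 1) minus the mean of the other 5 libraries, vertical axis) against the GC content of the longest coding transcript (percent, horizontal axis) for the tested junction genes, coloured by junction, and all other tested genes in grey. *Cldn3* lies lowest among the junction genes at -5.45 and *Gjb2* highest at 1.98.

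All 6 junction genes with a GC content of at least 56% (*Cldn3*, *Tjp3*, *Pkp3*, *Jup*, *Cldn7* and *Cldn4*) were below the other 5 libraries in gh18. So were 89.1% of all 2524 tested genes that GC-rich, a limit chosen after the values were seen. Relative to the mean of the other 5 libraries, gh18 held 2.09% of *Cldn3*, 8.77% of *Jup*, 15.1% of *Cldn4*, 17.9% of *Pkp3*, 31.98% of *Tjp3* and 33.1% of *Cldn7*. Of the 6 junction genes with a GC content of at most 45%, 4 were above the other 5 libraries in gh18 and *Cldn8* and *Gja1* were within their range, beside 82.0% of 2765 such genes above. Those 4 were *Cldn12*, *Cldn1*, *Dsc2* and *Ocln*, of which gh18 held 201%, 198%, 150% and 133% of the mean of the other 5. Genes outside this limit were above as well, among them *Gjb2* at 301% (GC content 48.2%) and *Tjp1* at 169% (46.8%). *Cldn23* at 170% (54.8%) and *Cldn15* at 152% (54.1%) were above although richer in G and C. What set gh18 apart was not tested. Each genotype comparison below is therefore also given after a correction for GC content and without gh18. The correction removes, in each library, a smooth trend of a gene's deviation from its own mean on its GC content.

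**Figure D2:**
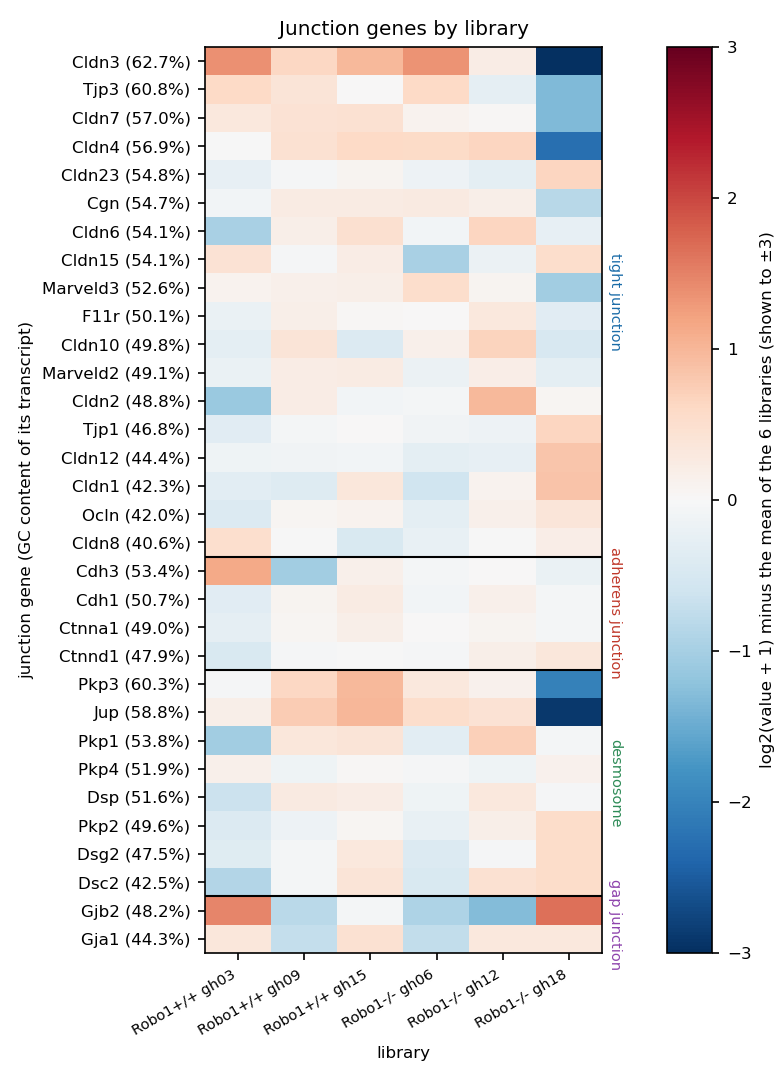
Each of the 32 tested junction genes (rows, with transcript GC content, sorted by it within each junction) in the 6 libraries (columns), coloured by log2(value + 1) minus the gene's mean over the 6 libraries, with colours capped at 3. The strongest blue cells are in the gh18 column for *Cldn3*, *Jup*, *Cldn4* and *Pkp3*, and *Gjb2* is high in gh03 and gh18.

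Among themselves, the junction genes spanned a wide range of levels. Per kilobase of exon, *Cldn4* was the most abundant in *Robo1+/+* LPs at 10264 ± 2115 (SD, n = 3), followed by *Cdh1* at 3951 ± 802. Next came *Ctnna1* at 2089 ± 327, *Cldn7* at 1626 ± 83.9, *F11r* at 1427 ± 190 and *Jup* at 1108 ± 309. Each of the first 5 differed from the next by more than the larger of their SDs. A barrier claudin and E-cadherin thus led the list. With the longest transcript in place of all exons as the length, *Cldn4* and *Cdh1* still came first, but *Jup* was at 2225 and above *Ctnna1* at 2089. From *Jup* down to *Cldn12* at 137 ± 2.28, no neighbours in the order differed by more than the larger SD. In this stretch lay *Cldn1*, *Ctnnd1*, *Cldn3*, *Dsp*, *Dsg2*, *Tjp1*, *Ocln*, *Marveld2*, *Pkp3*, *Cldn10*, *Gjb2*, *Cgn*, *Cldn6*, *Pkp4*, *Tjp3*, *Pkp1*, *Dsc2*, *Gja1*, *Cldn8* and *Pkp2*. Below them, *Cldn23* was at 34.5 ± 3.93, *Marveld3* at 26.6 ± 0.60, *Cldn2* at 15.9 ± 6.78, *Cldn15* at 9.27 ± 1.52 and *Cdh3* at 8.11 ± 5.77. *Cdh3* encodes P-cadherin, the cadherin of basal mammary cells. The other 7 claudins, *Cldn5*, *Cldn9*, *Cldn11*, *Cldn13*, *Cldn20*, *Cldn22* and *Cldn24*, had at most 5 reads in any library and were not tested.

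**Figure D3:**
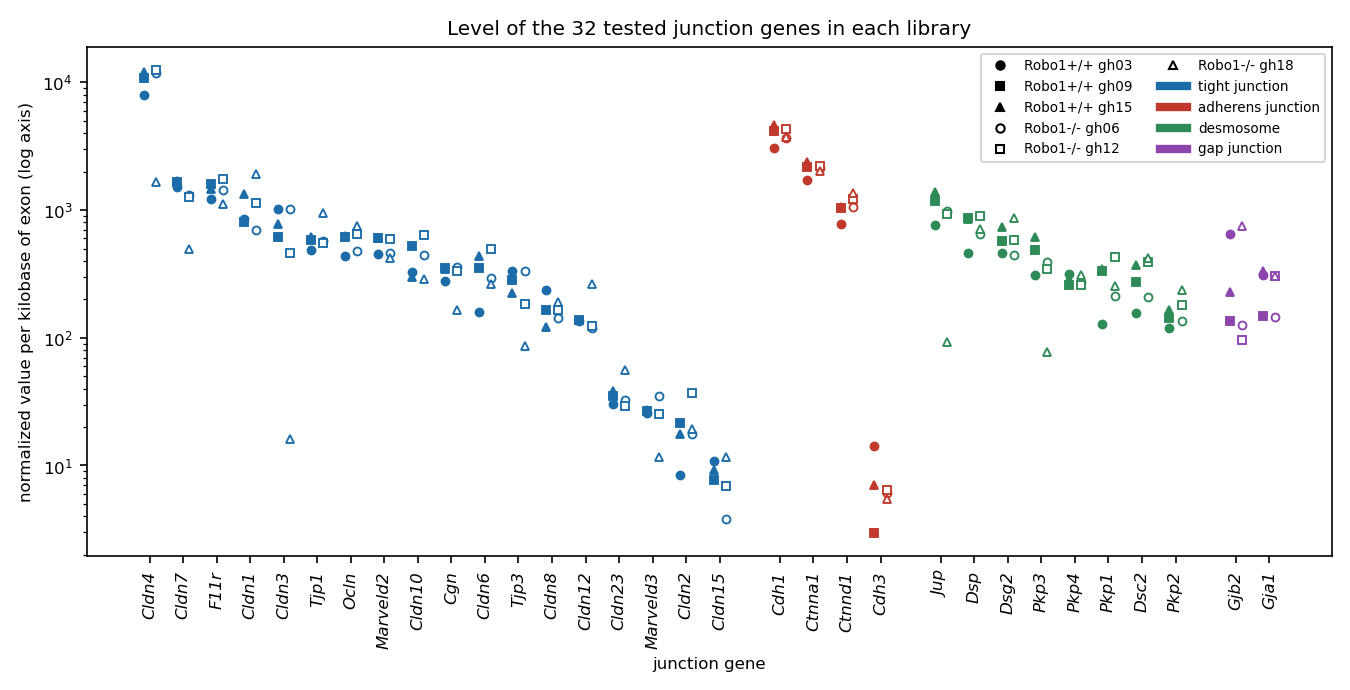
Normalized value per kilobase of exon (log axis) of the 32 tested junction genes in each library, grouped by junction and sorted by the *Robo1+/+* mean, with filled symbols for *Robo1+/+* and open symbols for *Robo1-/-*. *Cldn4* and *Cdh1* lead, and the open triangle of gh18 lies far below the others for *Cldn3*, *Jup* and *Cldn4*.

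No junction gene passed the test between genotypes. With limma and Benjamini-Hochberg adjustment over all tested genes, 0 of 32 had an adjusted p under 0.05, as did 0% of all genes, and the adjusted p of the junction genes lay between 0.858 and 0.998. At an unadjusted p under 0.05 the count was also 0 of 32 with limma, DESeq2 and edgeR, where limma called 1.69% of all genes. The log2 fold change was above 0 for 15 and below 0 for 17, with a median of -0.01 beside 0.00 over all genes. Adherens junction genes had a median of 0.02, tight junction genes -0.02, desmosome genes 0.09 and the gap junction genes -0.23. The standard error of a single gene was 0.38 in the median and 0.19 to 1.39 over the 32. The 95% interval of the log2 fold change stayed between -1 and 1 for 13 of 32, and for the others the data did not bound a change of that size.

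The count depended on single *Robo1-/-* libraries. Without gh18, 1 of 32 (*Cldn7*) had an unadjusted p under 0.05, beside 4.23% of all genes, and 22 of 32 intervals stayed between -1 and 1. After the GC correction of all 6 libraries the counts were 0 of 32, beside 1.58% of all genes, and 20 of 32. Without gh06, which leaves gh18 as 1 of 2 *Robo1-/-* libraries, *Cldn3*, *Cldn7* and *Tjp3* reached an unadjusted p under 0.05, beside 6.42% of all genes. All 3 were lower in *Robo1-/-*, and their adjusted p was 0.549 (limma).

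**Figure D4:**
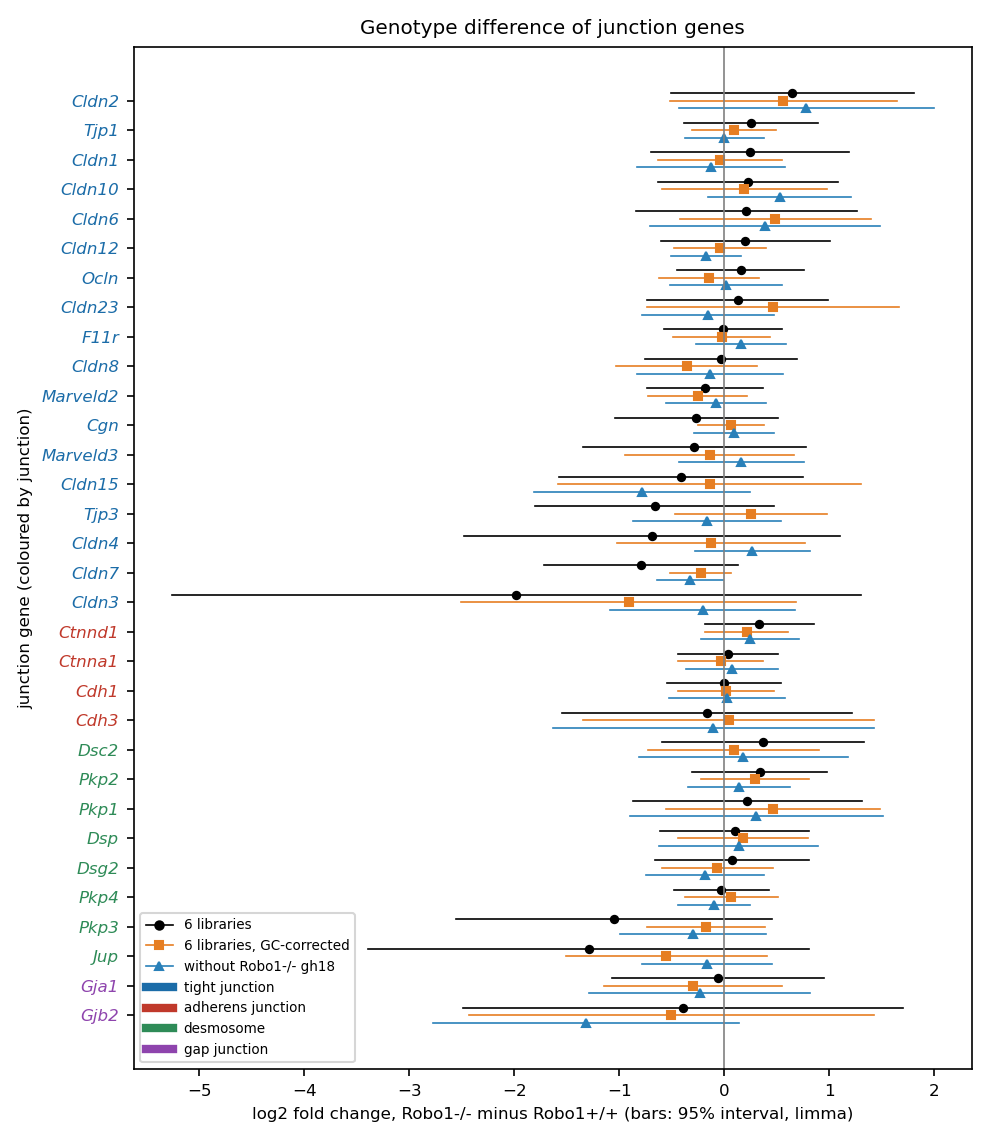
Log2 fold change of *Robo1-/-* against *Robo1+/+* (horizontal axis) with its 95% interval from limma for the 32 tested junction genes, with all 6 libraries (black), after the GC correction (orange) and without gh18 (blue). Every interval includes 0 except that of *Cldn7* without gh18, and *Cldn3*, *Jup* and *Pkp3* move toward 0 when gh18 is left out.

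Among the tested tight junction genes, *Cldn7* was the one whose genotypes did not overlap. It encodes a claudin of the basolateral membrane of many epithelia. *Cldn7* was at 2982, 3234 and 3289 in *Robo1+/+* (gh03, gh09 and gh15, the order kept below) and at 2575, 2468 and 962 in *Robo1-/-* (gh06, gh12 and gh18). The *Robo1+/+* libraries were close together, and gh18 was far below its fellow *Robo1-/-* libraries. The log2 fold change was -0.79 ± 0.39 (SE, limma, adjusted p = 0.858), with a 95% interval from -1.72 to 0.13. A two-sided exact permutation test gave p = 0.1, the smallest that 3 against 3 libraries allow. The difference was -0.22 after the GC correction and -0.33 without gh18 (limma, adjusted p = 0.936). Among all tested genes, 4.58% lay below without overlap and 4.83% above, so 1 lower and 0 higher of 32 is no more than the background.

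*Cldn4*, a claudin that tightens the barrier to sodium, was at 14323, 19628 and 21751 in *Robo1+/+* and at 21450.5, 22576 and 3015 in *Robo1-/-*. Apart from gh18, the *Robo1-/-* libraries were at the upper end of the *Robo1+/+* range. The log2 fold change was -0.69 ± 0.76 with all libraries and 0.27 without gh18, so 1 library set its direction. *Cldn3*, its neighbour on the chromosome and also a sealing claudin, was at 1281, 772 and 979 against 1276, 576 and 20.4. Here gh12 was also below the *Robo1+/+* range, and gh18 was far below every other library. Its log2 fold change of -1.98 ± 1.39 became -0.91 after the GC correction and -0.21 without gh18. *F11r* encodes JAM-A, an adhesion molecule of the tight junction. It was at 3257, 4256 and 3888 against 3804, 4688 and 2968, with overlapping genotypes and a log2 fold change of -0.01 ± 0.24.

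*Cldn1* and *Cldn12*, poorer in G and C, went the other way in gh18. *Cldn1*, needed for the barrier of the skin, was at 2768.5, 2644 and 4339.6 in *Robo1+/+* and at 2282, 3698 and 6238 in *Robo1-/-*. *Cldn12* was at 548, 560.4 and 567 against 485, 506 and 1074. Both were highest in gh18, and for *Cldn12* the other *Robo1-/-* libraries were the lowest of all. Their log2 fold changes of 0.24 ± 0.40 and 0.20 ± 0.34 turned to -0.12 and -0.17 without gh18, and to -0.04 for each after the GC correction. *Cldn2*, which forms a pore for sodium and water, was at 28.0, 72.1 and 58.2 against 58.7, 123 and 64.2. It had the largest positive log2 fold change of the 32, 0.65 ± 0.49, and its genotypes overlapped. *Cldn15*, another pore-forming claudin, was at 22.9, 16.5 and 19.7 against 8.06, 14.7 and 24.8, with gh18 the highest of the 6 and a log2 fold change of -0.41 ± 0.49. For *Cldn15* this became -0.14 after the GC correction and -0.78 without gh18.

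Without gh18, *Cldn7*, *Cldn12*, *Cldn15* and *Gjb2* were lower in *Robo1-/-* without overlap. That is 4 of 32, with 0 higher, beside 10.1% of all genes lower and 10.2% higher when 3 libraries are set against 2. Without gh06, 4 of 32 were lower (*Cldn3*, *Cldn7*, *Tjp3* and *Marveld3*) and 4 higher (*Ocln*, *Ctnnd1*, *Dsc2* and *Pkp2*), beside 15.2% and 15.1% of all genes. *Cldn7* was lower without overlap in both settings, which was fixed in advance, since it already did not overlap with all libraries in.

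*Cldn6*, *Cldn8*, *Cldn10* and *Cldn23* all overlapped between genotypes, and each varied between 1.92-fold (*Cldn23*) and 3.11-fold (*Cldn6*) from the lowest to the highest library. Of the claudins left untested, *Cldn22* was at 2.54, 3.92 and 1.88 against 1.15, 0 and 0, values of at most 5 reads that did not overlap between genotypes. It shares 43.3% of its sequences of 75 bases, the trimmed read length, with *Cldn24*, so reads could not be placed between these claudins with certainty.

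The scaffold and membrane proteins of the tight junction are *Tjp1* and *Tjp3* (the ZO scaffolds), *Cgn* (cingulin, a plaque protein), and *Ocln*, *Marveld2* (tricellulin) and *Marveld3*, a family of membrane proteins with 4 passes. *Tjp3* was at 1004, 865 and 674 in *Robo1+/+* and at 1008, 554 and 263 in *Robo1-/-*, the lowest value being that of gh18. Its log2 fold change of -0.66 ± 0.48 became 0.25 after the GC correction and -0.16 without gh18, so of these the GC correction alone turned its direction. The other 5 overlapped between genotypes and had standard errors of 0.23 to 0.45. In gh18, *Tjp1* and *Ocln* were above all other libraries and *Cgn*, *Marveld2* and *Marveld3* below them.

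The 4 adherens junction genes had a median standard error of 0.225, beside 0.38 over all junction genes, but that of *Cdh3* was 0.58. *Cdh1*, which encodes E-cadherin, the main adhesion molecule of luminal cells, was at 14051, 18932 and 21234 in *Robo1+/+* and at 16795, 19633 and 17040.1 in *Robo1-/-*. All *Robo1-/-* values lay inside the *Robo1+/+* range, gh18 included. The log2 fold change was -0.00 ± 0.23, with a 95% interval from -0.55 to 0.54. *Ctnna1* (α-catenin, which couples the cadherin complex to actin) was at 6392, 8031 and 8750.4 against 7850.3, 8254 and 7503, with a log2 fold change of 0.04 ± 0.20. *Ctnnd1* (p120-catenin, which keeps cadherin at the membrane) was at 5685, 7653 and 7808 against 7679.97, 8891 and 9962. Its *Robo1-/-* libraries were toward the upper end but overlapped *Robo1+/+* in gh06. Its log2 fold change was 0.33 ± 0.22 (limma, adjusted p = 0.858), 0.21 after the GC correction and 0.24 without gh18. The direction was thus kept in all 3, none passed the test, and 3 of the 4 adherens junction genes had intervals between -1 and 1. *Cdh3* was between 11.8 and 57.3 in *Robo1+/+* and between 21.9 and 25.7 in *Robo1-/-*, few reads for a comparison.

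Among desmosome genes, *Jup* stood out through gh18. It encodes plakoglobin, which binds the tails of desmosomal cadherins and also of E-cadherin. *Jup* was at 4964, 7551 and 8878 in *Robo1+/+* and at 6359.9, 6017 and 592 in *Robo1-/-*. Its log2 fold change of -1.29 ± 0.89 was -0.55 after the GC correction and -0.16 without gh18. *Pkp3*, a plakophilin that links desmosomal cadherins to desmoplakin, was at 1118, 1749 and 2240.1 against 1427, 1245 and 279. The other *Robo1-/-* libraries were inside the *Robo1+/+* range for both genes. For *Pkp3* the log2 fold change was -1.05 ± 0.64, then -0.18 after the correction and -0.30 without gh18. *Dsp* (desmoplakin, the anchor for keratin filaments) was at 4453, 8370 and 8128 against 6309, 8641 and 6806, a log2 fold change of 0.10 ± 0.30. The cadherin gene *Dsg2* was at 3797, 4714 and 6095 against 3693, 4783 and 7208, a log2 fold change of 0.07 ± 0.31. Both overlapped between genotypes, and the lowest values of both were those of gh03 and gh06. *Dsc2*, the partner cadherin, and the plakophilins *Pkp1*, *Pkp2* and *Pkp4* overlapped as well. *Pkp4* was among the steadiest of the 32, with a 1.21-fold range over the 6 libraries, and *Pkp1* varied 3.39-fold.

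The gap junction genes differed between libraries of the same genotype. *Gja1* encodes connexin 43, which is known mainly from basal and stromal cells of the gland, and *Gjb2* encodes connexin 26, a connexin of luminal cells. *Gja1* was at 957, 462 and 1032 in *Robo1+/+* and at 455, 939 and 944 in *Robo1-/-*. Each genotype thus held 1 low library and a pair of high ones, and the log2 fold change was -0.06 ± 0.43. For *Gja1* this became -0.30 after the GC correction and -0.24 without gh18. *Gjb2* was at 1574, 328 and 548 against 300.4, 231 and 1795. It was high in 1 library of each genotype, gh03 and gh18, with a log2 fold change of -0.39 ± 0.88. Without gh18 it was -1.31, with a 95% interval from -2.77 to 0.14 (limma, adjusted p = 0.936). Neither gap junction gene had an interval between -1 and 1 in any version, so the data set little bound on a change in connexins.

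Other genes of the same junctions gave the same count. Of 89 further genes chosen for these structures and their regulators, 80 had reads and 58 were tested. With limma, 0 of the 58 reached an unadjusted p under 0.05, beside the 1.69% of all genes given above, and the median log2 fold change was -0.08. The tested genes were 26 of tight junctions and cell polarity, 13 of adherens junctions, 3 of desmosomes, 5 of gap junctions and 11 transcription factors known to act on junction genes. The 5 other connexins had the lowest median, -0.75, which was -0.40 after the GC correction and -0.10 without gh18. Without overlap, *Tjap1* and *Arvcf* were lower in *Robo1-/-* and *Magi2* was higher, beside 4.58% of all genes lower and 4.83% higher. These 3 genes were named after their values were seen, and *Magi2* had only 8 to 15 reads per library.

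Markers of other cell types were read beside these results. Basal markers summed to 907 to 2548 in *Robo1+/+* and 1080.01 to 1864 in *Robo1-/-*, with *Tagln*, *Acta2* and *Krt14* the most abundant. The summed level of 9 markers of mature, hormone-sensing luminal cells was 46691 to 59297 in *Robo1+/+* and 61987 to 73746 in *Robo1-/-*, so the sum did not overlap. A sum follows its most abundant genes, and no background was counted for it. Of the 9 genes, 1 was higher without overlap and 0 lower, beside 4.83% and 4.58% of all genes. Their median log2 fold change was 0.22, 0.13 after the GC correction and 0.41 without gh18. The summed level of 9 LP markers was 34833 to 58318 in *Robo1+/+* and 51395 to 75822 in *Robo1-/-*. Every gene of these 3 lists and of the luminal list was tested. In all, 3 of them had an unadjusted p under 0.05, beside 1.69% of all genes, and all were higher in *Robo1-/-*: *Cd24a*, *Csn3* and *Pgr* (limma, adjusted p = 0.858 for each). Their part in the junction genes' levels was not tested.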

How the data were processed

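Sorted LPs of 3 *Robo1+/+* and 3 *Robo1-/-* libraries were used. The authors trimmed reads to 75 bases, removed those matching repeat elements (bowtie2), mapped the rest to NCBI37/mm9 (TopHat) and normalized counts with DESeq2. The counting tool, its use of strand and its treatment of reads with several matches are not given in the sources used here. Reads of overlapping genes on opposite strands (*Cldn3*, *Dsg2*, *Dsp*, *Tjp3*, each over at most 3.99% of the exons) and of *Cgn* with a gene on the same strand can therefore be mixed.

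The deposited values are a normalized signal per gene cluster: reads divided by 1 scaling factor per library, rounded. Whole reads were recovered for 100% of values (within 0.005 plus 0.001% of the value). One read was worth 0.784 to 1.46. A value under that of 3 reads is counting noise, and this covers counting error only.

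Junction genes were found by symbol. The members and the gene lists were chosen with earlier results of these data known. Main test: limma (version 3.58.1, R 4.3.3) with trend on log2(value + 1), so fold changes of low genes are understated, Benjamini-Hochberg adjusted over the 13692 genes kept by filterByExpr of edgeR (version 4.0.16). Scripts were tested on simulated data. Alternatives were DESeq2 (version 1.42.0) and edgeR on recovered reads, TMM and upper-quartile factors, no filter or one on the mean value (10), a pseudocount of 0.5 or 5, the longest transcript as length, each library left out, and a GC correction (lowess, span 0.3). GC content and lengths came from GENCODE annotation of NCBI37, in which 16496 clusters (89.0%) and all 39 junction genes had a match. The replicate tags differ between genotypes, and no batch is named in the labels.

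Per-library values were given for members without overlap between genotypes, with an unadjusted p under 0.05, or among the 3 most abundant per kilobase in their junction class (both gap junction genes). *Cldn1*, *Cldn2*, *Cldn3*, *Cldn12*, *Cldn15*, *Cldn22*, *Tjp3* and *Pkp3* were added after their values were seen.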

Additional observations from a re-analysis of the deposited data

How the results depend on the processing

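The count of junction genes with an adjusted p under 0.05 was 0 in all 16 alternatives, and the median log2 fold change of the junction genes lay between -0.09 and 0.10 with 1 library left out, and that of the 2 gap junction genes between -0.78 and 0.17. With no filter on low values, 1 junction gene (*Cldn22*) and 1 further gene of these junctions (*Gja4*) reached an unadjusted p under 0.05 (limma). So did 415 of all 18537 genes. DESeq2, edgeR, the other scalings, filters and pseudocounts and the GC correction gave 0 junction genes and 0 further genes. Leaving out 1 library gave 0 to 3 junction genes (3 without gh06) and 0 to 2 further genes (2 without gh06) at that limit. Of all 13692 tested genes, 117 (without gh15) to 879 (without gh06) reached it. Junction genes without overlap then numbered 1 to 8 (4 without gh03, gh09 or gh18, 2 without gh15, 8 without gh06), since fewer libraries overlap less often. A GC correction among the 5 libraries other than gh18, added after the data were seen, gave 4 without overlap. Of all genes, 10.1% were lower and 10.2% higher without overlap when gh18 was left out, and 15.2% and 15.1% without gh06. That share was not counted without gh03, gh09, gh12 or gh15 or for the added correction. Those counts therefore say nothing about the junction genes in particular. The median level per kilobase of the junction genes was 287, 317 with the longest transcript as length, and 286 to 323 with 1 *Robo1+/+* library left out.

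Directions turned mostly where the log2 fold change was near 0, and none of these genes had an adjusted p under 0.05 in any alternative. For *F11r* it was 0.00893 with DESeq2, 0.00133 with edgeR and 0.0267 with upper-quartile factors, and for *Cdh1* 0.0329 with upper-quartile factors. After the GC correction it was 0.25 for *Tjp3*, -0.0446 for *Cldn1*, -0.0373 for *Cldn12*, 0.0164 for *Cdh1*, -0.03585 for *Ctnna1* and -0.0661 for *Dsg2*. With that correction and without gh18 it was 0.31 for *Cldn4*, 0.14 for *F11r*, -0.17 for *Cldn1*, -0.21 for *Cldn12*, 0.014 for *Cdh1* and -0.21 for *Dsg2*. Leaving out 1 library gave ranges of -1.19 to 0.27 for *Cldn4*, -0.17 to 0.16 for *F11r*, -0.12 to 0.60 for *Cldn1*, -0.17 to 0.40 for *Cldn12*, -0.17 to 0.12 for *Cdh1*, -0.0923 to 0.13 for *Ctnna1*, -0.20 to 0.26 for *Dsp*, -0.18 to 0.30 for *Dsg2*, -0.43 to 0.29 for *Gja1* and -1.31 to 0.24 for *Gjb2*. The causes were not tested. *Cldn7* kept a negative value in all 16 alternatives, as did *Cldn3*, *Jup*, *Pkp3* and *Cldn15*, and *Cldn2* and *Ctnnd1* kept a positive one. Without gh18, *Cldn3*, *Jup* and *Pkp3* were at only -0.21, -0.16 and -0.30. No paired analysis was possible because the genotypes share no replicate tag and the labels do not say which animals were litter mates of which. No scaling moved the median of all genes by more than 0.04 on the log2 scale. The 7 claudins with at most 5 reads in any library are below what these libraries can compare.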

Other observations

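*Gjb2* was high in the same libraries as the milk protein gene *Csn2* (β-casein), which was at 13697, 1139 and 2832 in *Robo1+/+* (gh03, gh09 and gh15) and at 674, 303 and 5456 in *Robo1-/-* (gh06, gh12 and gh18). Over the 6 libraries, on the log2(value + 1) scale, Pearson's r was 0.94 (exact permutation p = 0.00556, adjusted p = 0.178 over the 32 tested junction genes) and Spearman's rho 0.94 (exact permutation p = 0.0167, adjusted p = 0.470). Without gh03 and gh12, the libraries farthest from the median of *Csn2*, r was 0.93. With so few libraries left, r ran from -0.92 (*Tjp3*) to 0.99 (*Cldn1*) over the 32 genes. For *Pkp2* it was 0.94 beside -0.08 over all 6, so the value of *Gjb2* adds little. *Pkp4* also had a high r with *Csn2* over the 6 libraries, 0.91 (exact permutation p = 0.0139, adjusted p = 0.222). The pair of *Gjb2* and *Csn2* was chosen after the values were seen, and its relation did not pass the adjustment. Within each genotype, the libraries stood in the same order for both genes, but 3 libraries are too few for a test there.

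Other marker lists were low in every library. Endothelial markers summed to 1387 to 2482 in *Robo1+/+* and 210.1 to 1701 in *Robo1-/-*, almost all from *Vwf* and *Eng*, with *Cdh5* and *Kdr* at 0 in at least 3 libraries each. Fibroblast markers summed to 728 to 848 and 333 to 1066, erythroid markers to 36.6 to 137 and 57.7 to 116, leukocyte markers to 99.2 to 143 and 74.4 to 120.01, and adipocyte markers to 2.54 to 3.92 and 1.46 to 3.66.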
